A study of Drosophila melanogaster with 90 samples.

Results

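The 6 genes described here store or carry iron: Fer1HCH, Fer2LCH, Tsf1, Tsf2, Tsf3 and Mvl. They were followed through every probe set that the array annotation assigned to exactly 1 of these symbols, which gave 8 of the 18769 probe sets tested and 6 of 11982 genes. Fer1HCH (1633034_s_at), Fer2LCH (1636186_s_at), Tsf2 (1628943_at), Tsf3 (1633017_at) and Mvl (1624392_s_at) had 1 probe set each, and Tsf1 had 3 (1632430_at, 1639442_a_at and 1640934_at). All 8 were tested, with no filter on low values. The third Tsf1 probe set was dim throughout, at 2.65 to 3.37 on the magnet arrays on the log2 scale of the deposited values, and it passed the test in no comparison.

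The measurements came from whole Drosophila melanogaster pupae of the Oregon R strain on 90 Affymetrix arrays in 32 groups, each array a pool of several pupae collected shortly before eclosion. Animals were placed in 3 altered gravity facilities from early metamorphosis until shortly before its end: a levitation magnet (30 arrays), a random positioning machine or RPM, which turns the sample continuously about changing axes (20 arrays), and a large diameter centrifuge or LDC (40 arrays). In the magnet the positions 0g*, 1g* and 2g* all lie inside the field, and the star marks effective gravity there. The field at 0g* and 2g* was of the same strength and that at 1g* stronger, so that 0g* and 2g* carry field and altered weight together. Magnet pupae were in plastic arenas and RPM and LDC pupae in metal containers. The controls at 1g stood outside each facility, and in the LDC a rotational control turned at the centre of the machine beside the 12g and 6g positions. Each facility was combined with environmental constraints: a cold step before the exposure (cold step), a closed container that limits oxygen (hypoxia), both, or neither (no constraint). Magnet positions were run in closed containers only, with and without the cold step, beside open 1g controls. The RPM was run without constraint, after the cold step, and after the cold step in closed containers. The LDC was run in all 4 environments. The labels name the replicates biological. They do not say which groups were run at the same time. In the magnet and RPM facilities the cold step and a difference between runs therefore cannot be told apart. In the LDC each of 2 experiments held groups of both temperatures. Whether these ran at the same time is not stated, so the same limit holds there.

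Array medians were 4.99 to 5.11 in the magnet, 5.03 to 5.15 in the RPM and 6.37 to 6.53 in the LDC arrays, so levels were compared within a facility only. Arrays of one group correlated at 0.9519 to 0.9956 and no pair was identical. The LDC arrays came from 2 experiments run in parallel, 19 arrays from the first and 21 from the second. All closed 1g and rotational control arrays were of the first and all closed 12g and 6g arrays of the second, so in closed containers gravity and experiment cannot be told apart except through a term for the second experiment, which open 1g and rotational control arrays of both experiments inform. Open 12g arrays were all of the first experiment and open 6g arrays all of the second. Called LDC values of members are therefore given with that term too, except where both sides of a comparison hold the same mix of experiments, so that the term leaves the fold change as it is. These are the comparisons of the cold step within a position and container, and those of 12g with 6g in closed containers. Values of gene lists are given without the term throughout. The late pupal stage was checked with marker genes: photoreceptor and flight muscle genes averaged 9.978 to 11.15 per array in the magnet and RPM, and early metamorphosis genes 3.691 to 5.739 in the magnet. In the RPM facility the early metamorphosis genes reached 8.37 on an array without constraint. For the LDC arrays these averages are not given here, so their stage is not shown. Genes of the male accessory gland, which mature late in metamorphosis, spanned 3.511 to 7.838 in the magnet and 4.693 to 10.16 in the LDC, and their values are given beside the main results.

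Iron in insects is stored in a large secreted ferritin, a shell built of heavy chains, which oxidise iron, and light chains, which help to lay it down as a mineral. The shell is assembled in the secretory pathway, in contrast to the cytosolic ferritin of mammals. Transferrins bind ferric iron: Tsf1 is the abundant iron carrier of the haemolymph and is also induced by infection, and Tsf2 is the fly melanotransferrin and a part of the septate junctions that seal epithelia. Tsf3 is a further member of the family. Mvl (Malvolio) is the fly member of the NRAMP family of membrane transporters for iron and manganese.

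The 2 ferritin chains varied little in level and moved together over the arrays of every facility. Fer1HCH, the heavy chain, lay between 11.76 and 12.58 on the magnet arrays (median 12.125), between 11.93 and 12.55 on the RPM arrays and between 12.80 and 13.64 on the LDC arrays. Fer2LCH, the light chain, spanned 11.25 to 12.09, 11.42 to 12.00 and 12.38 to 13.16. Over arrays the pair correlated at r = 0.966 in the magnet (n = 30), 0.946 in the RPM (n = 20) and 0.901 in the LDC facility (n = 40). After the group means were taken out, r was 0.79, 0.919 and 0.872. The points share their RNA pool and array, and the genes are neighbours in the Release 6 annotation with 0 protein-coding genes between them and overlapping annotated intervals. Whether the probes lie in the overlap was not tested, and both probe sets carry the suffix for probes shared by more than 1 transcript.

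**Figure D1:**
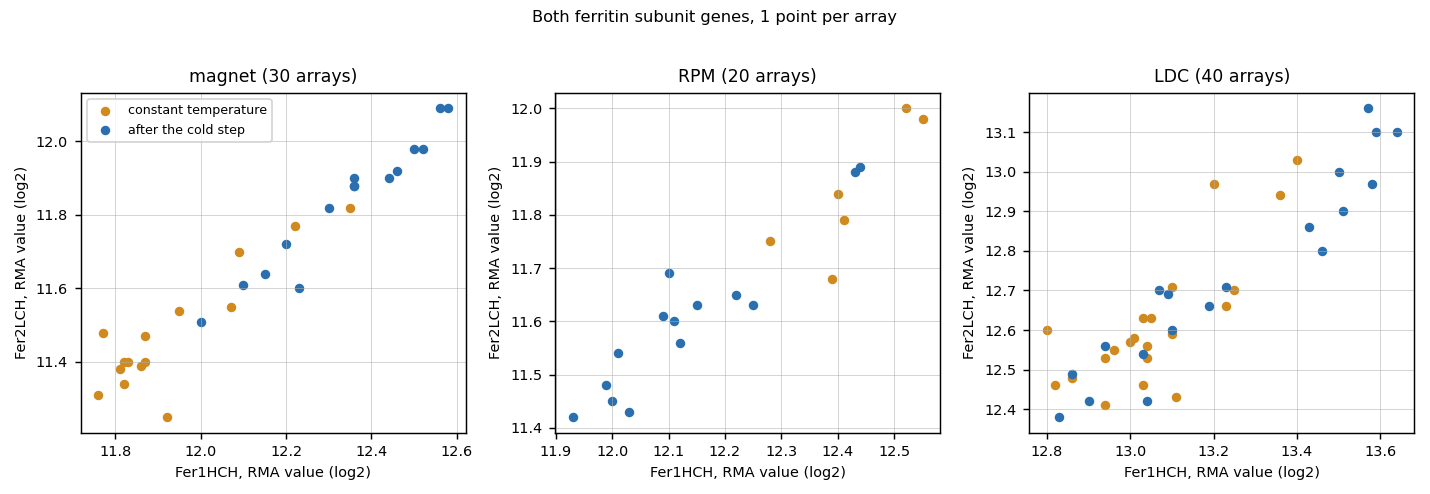
Log2 value of Fer2LCH (vertical axis) against Fer1HCH (horizontal axis), 1 point per array, in the magnet, RPM and LDC facilities. The points lie along a rising line in each panel, with r of 0.966, 0.946 and 0.901.

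Order over the groups was loose for all members. In the magnet, where 10 group means give 9 neighbouring pairs, the arrays of neighbours overlapped in 9 of 9 pairs for Fer1HCH, Tsf3 and Mvl, in 8 of 9 for Fer2LCH and Tsf1 (1632430_at), and in 7 of 9 for Tsf2 and the other bright Tsf1 probe set. The spans differed more. Tsf1 (1632430_at) ran from 8.52 to 11.34 on the magnet arrays, Tsf1 (1639442_a_at) from 6.10 to 9.43 and Mvl from 4.42 to 6.98, where Tsf2 ran from 7.78 to 8.77 and Tsf3 from 5.94 to 7.06. The Tsf1 pair of bright probe sets correlated at 0.956 over the magnet arrays, 0.941 in the RPM and 0.761 in the LDC facility. Both are given below where either was called, the uncalled one in the LDC by its group means.

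The magnet comparisons ask whether effective gravity or the field changes expression. At constant temperature in closed containers both ferritin genes were higher at 2g* than at 1g*, and Fer2LCH also than in the closed 1g control, and no other member passed the test in a magnet position. Fer2LCH read 11.70, 11.82 and 11.77 at 2g* against 11.25, 11.34 and 11.38 in the closed 1g control, 11.47, 11.39 and 11.54 at 0g* and 11.48, 11.31 and 11.40 at 1g*. Fer1HCH read 12.09, 12.35 and 12.22 at 2g* against 11.92, 11.82 and 11.81 at closed 1g, 11.87, 11.86 and 11.95 at 0g* and 11.77, 11.76 and 11.83 at 1g*. Every 2g* array of both genes lay above all 12 other arrays of constant temperature, open 1g included, narrowly so for Fer1HCH (12.09 against 12.07). The same held for Tsf2, at 8.29, 8.11 and 8.13 on the 2g* arrays against at most 8.08 elsewhere, and for Tsf1 (1632430_at), at 9.46, 9.75 and 9.96 against at most 9.38. How many of all probe sets separate in this way was not counted, so these orders are description only.

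In the test of 2g* against closed 1g, Fer2LCH was higher by 0.44 (log2, SE 0.10, 95% interval 0.24 to 0.64, 1.36-fold, n = 3 against 3) with an adjusted p of 0.0414 in limma with Benjamini-Hochberg adjustment. It was the 1 member of 8 called, where 0.416% of all probe sets were called. Fer1HCH was at 0.37 (adjusted p = 0.12), Tsf1 at 0.89 and 1.05 (0.23 and 0.17), Tsf2 at 0.28, Tsf3 at 0.41 and Mvl at 0.44, none of them called. Against 1g*, the position with normal weight inside the field, both chains were called at 2g* among 3.36% of all probe sets, Fer1HCH at 0.43 (SE 0.10, 95% interval 0.22 to 0.65, 1.35-fold, adjusted p = 0.0167) and Fer2LCH at 0.37 (1.29-fold, adjusted p = 0.0348). These calls rest on few arrays: both Fer2LCH calls were lost when any 1 of their 6 arrays was left out, at 0.40 to 0.47 against closed 1g and 0.32 to 0.41 against 1g*, and the Fer1HCH call was lost without 1g* array 1 (0.42), 1g* array 2 (0.42) or 2g* array 2 (0.37). After quantile normalization none of the 3 was called, at 0.43 for Fer2LCH against closed 1g and 0.38 for both genes against 1g*. The adjusted p of Fer2LCH against closed 1g ran from 0.00766 to 0.517 over its alternatives, and that of Fer1HCH against 1g* from 0.00239 to 0.247. Here and below, losses in fits of the compared groups alone or with a block for the replicate number are mostly not listed. Among 153 member values with an unadjusted p under 0.05 in limma, these settings ended 36 and 6 calls.

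The 0g* and 1g* positions gave no call among the 8 probe sets against closed 1g at constant temperature, where 0 and 0.0107% of all probe sets were called and 0 of 8 members had an unadjusted p under 0.05 in either. After the cold step no position gave one either, with 0.501% of all probe sets called at 0g*, 0.0426% at 1g* and 0.101% at 2g*, and 0, 2 and 0 members at an unadjusted p under 0.05 in limma. Between positions after the cold step 0 members were called (2.49% for 0g* against 1g*, 0 for 2g* against 1g*, 3.85% for 0g* against 2g*), with 5, 0 and 3 members at an unadjusted p under 0.05. At constant temperature the comparison of 0g* with 2g* called 0 members (0.352% of all), with 4 at an unadjusted p under 0.05, and that of 0g* with 1g* called 0 (0.0213%). The difference of the 2g* response between the environments was -0.23 for Fer1HCH and -0.30 for Fer2LCH, neither called, so a 2g* difference limited to constant temperature was not shown. Genes of the accessory gland moved with the 2g* group: their mean was 4.485 to 5.224 on the 2g* arrays, 6.236 to 6.762 at closed 1g and 6.768 to 7.838 at 1g*, with 4 of 10 lower against closed 1g (median -1.31) and 9 of 10 lower against 1g* (median -2.59). Fat body storage genes averaged 11.35 to 11.36 at 2g*, above 1g* (10.92 to 11.17) and 0g* (10.78 to 11.13) and within the closed 1g range (11.15 to 11.43), with 2 of 5 higher against 1g* and 0 against closed 1g. Septate junction genes, which form an epithelial seal that includes Tsf2, averaged 8.562 to 8.929 at 2g* against 8.296 to 8.432 at 1g*, with 2 of 14 higher. An antimicrobial peptide list, relevant because Tsf1 answers infection, had 0 of 6 called at 2g* (median 0.83) with means of 6.033 to 9.385 on its arrays, of which 1 was high. Their part in the ferritin values was not tested. In such bulk samples, fewer cells of a type and less RNA per cell cannot be told apart.

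**Figure D2:**
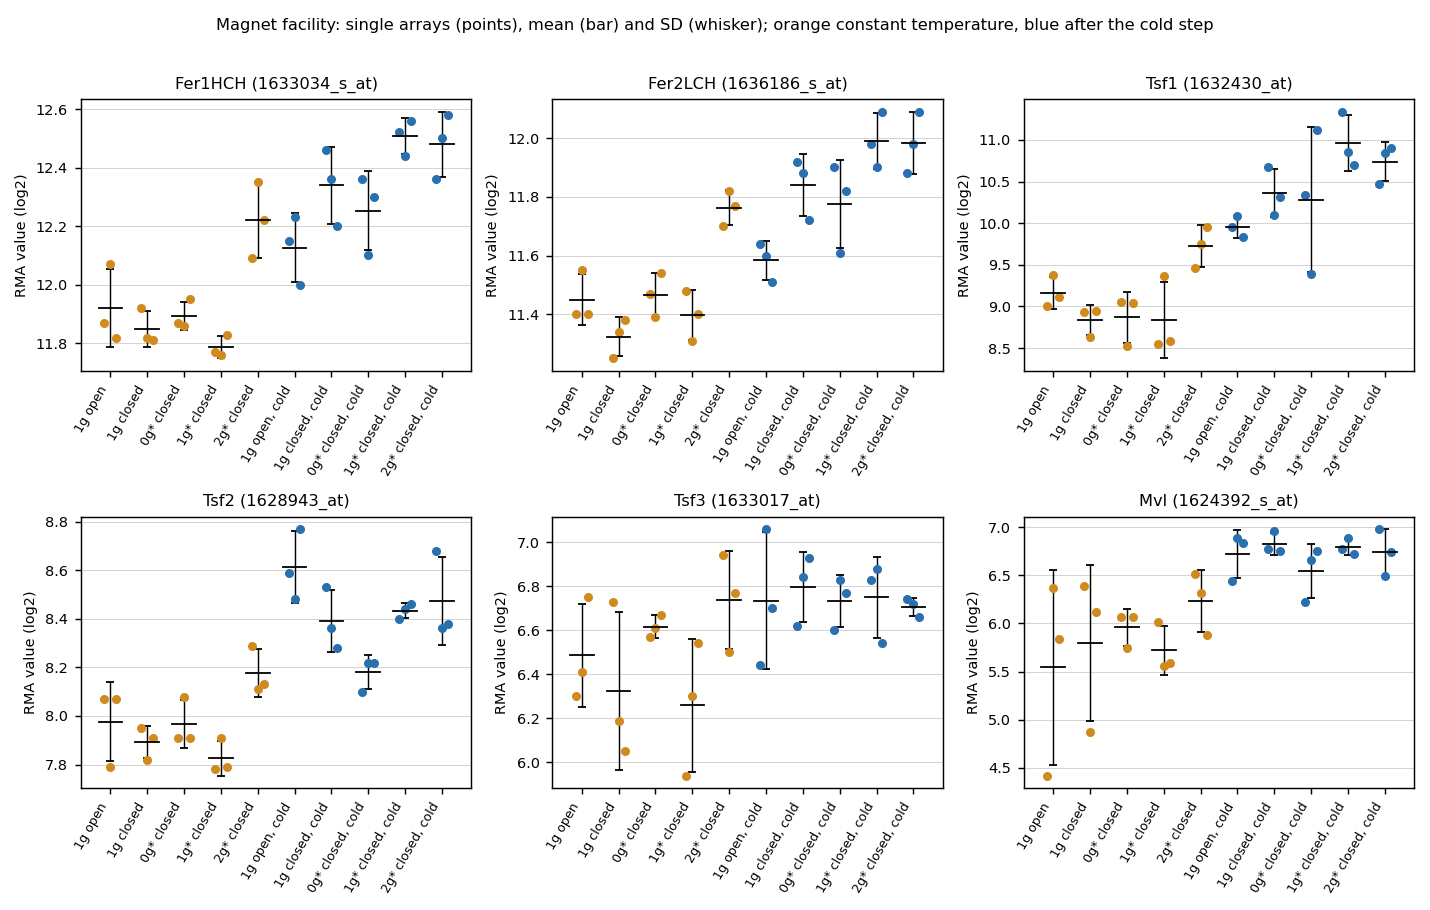
Log2 value (vertical axes) of Fer1HCH, Fer2LCH, Tsf1 (1632430_at), Tsf2, Tsf3 and Mvl in the magnet facility, by position and container (horizontal axis), with single arrays as points and mean and SD as bars. Orange marks constant temperature and blue the cold step; the blue groups of Tsf1 reach 11.34 where no orange array is above 9.96.

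The largest contrast in the magnet facility was that of cold step groups with constant-temperature groups, compared within each position and container. Of 56 member values in 5 such comparisons and in the comparisons of open with closed 1g, 20 were called and all 20 were higher after the cold step. Between 5.94% and 23.9% of all probe sets were called in the 5 cold step comparisons. The share called higher among all probe sets is not given, so the common direction is description only. Fer1HCH, Fer2LCH, Tsf1, Tsf2 and Mvl rose in the closed 1g control, and 1 Tsf1 probe set, Tsf2 and Mvl in the open one. Open and closed 1g controls differed for 0 of 8 members at constant temperature, where 0% of probe sets were called, and for 0 of 8 after the cold step, where 1.58% were, with 0 and 2 at an unadjusted p under 0.05 in limma.

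Tsf1 had the largest fold changes of the members in the closed groups. In the closed 1g control Tsf1 (1632430_at) read 8.93, 8.63 and 8.95 at constant temperature and 10.67, 10.10 and 10.31 after the cold step, and the groups were well apart. At 1g* it read 8.55, 9.36 and 8.59 against 11.34, 10.85 and 10.70, again without overlap. At 0g* it read 9.05, 8.52 and 9.04 against 10.34, 9.39 and 11.12, also without overlap but with 1 cold step array near the others. Arrays without overlap were found for 43.6% of all probe sets at closed 1g, a share not given for 1g* and 0g*. The rise was 1.52 at closed 1g (SE 0.29, 2.87-fold, adjusted p = 0.000586 in limma), 2.13 at 1g* (4.38-fold, 5.09e-06), 1.41 at 0g* (0.00393) and 1.01 at 2g* (0.0272). Probe set 1639442_a_at rose by 1.69 (3.23-fold), 2.35 (5.10-fold), 1.55 and, not called, 1.00 at the same positions. In limma fits of the compared groups alone both 0g* calls were lost, at adjusted p of 0.134 and 0.108. In open 1g controls the pair of probe sets split at the threshold: 1639442_a_at rose by 1.32 (adjusted p = 0.00336), and 1632430_at, at 9.95, 10.09 and 9.83 against 9.0, 9.38 and 9.11, was 0.79 higher with an adjusted p of 0.051. The 2g* call of 1632430_at was lost without array 1 or 2 at constant temperature (0.88 and 1.03) or array 2 or 3 of the cold step (0.96 and 0.93). With the dim Tsf1 probe set averaged in, the rise was 1.41 at 1g* and 0.71 at open 1g.

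Both ferritin chains rose in the closed 1g and 1g* groups, and 1 of them at 0g*. Fer1HCH went from 11.92, 11.82 and 11.81 to 12.46, 12.36 and 12.20 at closed 1g, a rise of 0.49 (SE 0.10, 1.40-fold, adjusted p = 0.00158), and from 11.77, 11.76 and 11.83 to 12.52, 12.44 and 12.56 at 1g*, a rise of 0.72 (1.65-fold, 9.68e-06). Fer2LCH went from 11.25, 11.34 and 11.38 to 11.92, 11.88 and 11.72 at closed 1g, a rise of 0.52 (1.43-fold, 0.000513), and rose by 0.59 at 1g* (1.51-fold, 5.92e-05). In none of these 4 comparisons did the arrays overlap, at closed 1g beside 43.6% of all probe sets and at 1g* with no share given. At 0g* Fer1HCH rose by 0.36 (adjusted p = 0.0365, lost without any 1 of 5 of its 6 arrays, the exception being cold step array 2, at 0.31 to 0.39, and after quantile normalization, at 0.30, or median centring, at 0.31) and Fer2LCH was 0.31 higher, not called (0.059). At 2g*, where the constant-temperature arrays were already high, the differences were 0.26 and 0.22, and in open 1g controls 0.21 and 0.13, none of them called.

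Tsf2 rose from 7.95, 7.82 and 7.91 to 8.53, 8.36 and 8.28 at closed 1g (0.50, 1.41-fold, adjusted p = 0.00236), from 8.07, 7.79 and 8.07 to 8.59, 8.48 and 8.77 at open 1g (0.64, 8.83e-05) and from 7.78, 7.91 and 7.79 to 8.40, 8.44 and 8.46 at 1g* (0.61, 1.52-fold, 0.00018). The closed 1g call was lost after quantile normalization (0.35), and the differences of 0.21 at 0g* and 0.30 at 2g* were not called. Mvl was the noisiest member, with an SE of 0.35, since single low arrays stood at 4.87 in the closed and 4.42 in the open 1g control beside arrays of 5.84 to 6.39. Mvl read 6.77, 6.96 and 6.75 after the cold step at closed 1g (1.03 higher, 2.05-fold, adjusted p = 0.0412) and 6.44, 6.89 and 6.84 at open 1g (1.18 higher, 0.0156). Without the low array the difference was 0.57 at closed 1g and 0.62 at open 1g, and neither was called. The closed 1g call of Mvl was also lost without closed 1g array 3 (1.2) or any cold step array (0.97 to 1.07), and the open one without cold step array 2 or 3 (1.1 and 1.12). At 1g* Mvl rose by 1.07 (2.10-fold, 0.0259), a call lost without any 1 of 5 of its 6 arrays, the exception being 1g* array 1, at 0.99 to 1.11. After quantile normalization Mvl was at 0.90 at closed 1g and 0.88 at 1g*, neither called.

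Tsf3 rose in 1 magnet group only among those tested, by 0.49 at 1g* (adjusted p = 0.0481), from 5.94, 6.30 and 6.54 to 6.83, 6.88 and 6.54, where the highest array of the first group equals the lowest of the second. That call was lost without 1g* array 1 (0.33) or 2 (0.51) or cold step array 1 (0.45) or 2 (0.42), and after quantile normalization (0.30) or median centring (0.45) or with trend and robust settings (0.49). At closed 1g Tsf3 was 0.47 higher (0.069), at open 1g 0.25 and at 2g* -0.03, none called. The shares of all probe sets called in these comparisons were 16.9% at closed 1g, 23.9% at 1g*, 5.94% at 0g*, 8.36% at 2g* and 21.8% at open 1g, beside 6, 7, 3, 1 and 3 of the 8 members. At closed 1g the arrays of 43.6% of all probe sets did not overlap. For the other comparisons this share is not given, so a lack of overlap there is description only.

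Other genes of iron metabolism were called beside the members in part. In the closed 1g control 3 of 8 measured genes of iron handling rose and none fell (median 0.28, against -0.07 over all probe sets): Mco3 by 1.53 (adjusted p = 0.00185), Mco1 by 0.59 (0.016), both multicopper oxidases, and Evi5 by 0.81 (0.0207). In the open control 4 of 8 rose (median 0.61), led by Mco3 at 3.47 (1.23e-08) and with Fer3HCH, the mitochondrial ferritin, at 0.71 (0.0468). Of 7 haem synthesis genes 0 were called at closed 1g (median 0.05) and of 8 iron-sulphur cluster genes 1 was lower (median -0.13). Fat body storage genes had 2 of 5 higher at closed 1g (median 0.43) and 4 of 5 higher at 1g* (median 0.78). Haemocyte genes had 2 higher and 1 lower of 11 (median -0.01), midgut genes 3 lower of 9 (median -0.32), tanning genes 5 higher and 2 lower of 10 (median 0.33) and antimicrobial peptides 0 of 6 (median 0.27). Photoreceptor and flight muscle genes had 1 higher and 2 lower of 8 (median -0.08) and early metamorphosis genes 2 higher of 8 (median 0.20).

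The genes of the male accessory gland moved with the cold step in every magnet group. Their mean was 6.236 to 6.762 at closed 1g against 3.793 to 4.13 after the cold step, 5.664 to 7.288 against 3.511 to 3.653 at open 1g, 6.768 to 7.838 against 3.533 to 3.624 at 1g*, 5.254 to 6.217 against 4.134 to 4.745 at 0g* and 4.485 to 5.224 against 3.595 to 3.889 at 2g*. All 10 were lower at closed 1g (median -2.29), among them Acp36DE at -4.34, Acp62F at -4.31, Acp53Ea at -3.78 and Dup99B at -2.84. Their part in the member values was not tested.

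On the RPM the question is whether simulated weightlessness changes expression, and 0 of 24 member values were called against 1g in 3 environments in limma, with 1 at an unadjusted p under 0.05. Of all probe sets 0.00533% were called without constraint and 0 in the other environments. Without constraint Fer1HCH read 12.39, 12.41 and 12.40 on the RPM against 12.52, 12.55 and 12.28 at 1g. After the cold step in closed containers the 1g arrays fell into a low and a high pair for Fer1HCH, at 11.99 and 12.03 and at 12.44 and 12.43, and Tsf1 (1632430_at) spread from 9.10 to 11.25 in the same group against 9.15 to 10.27 on the RPM. Such spread limits what these comparisons can show.

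The cold step in the RPM facility went with lower Tsf3 and Fer1HCH. Tsf3 read 8.23, 8.47 and 7.63 at 1g without constraint and 6.95, 6.96 and 7.02 after the cold step, and 7.85, 7.82 and 7.34 against 6.83, 6.72 and 6.97 on the RPM. It fell by 1.13 at 1g (SE 0.20, adjusted p = 0.0024 in limma) and by 0.83 on the RPM (adjusted p = 0.0454). Fer1HCH fell by 0.38 at 1g (SE 0.12, adjusted p = 0.0394), from 12.52, 12.55 and 12.28 to 12.09, 12.11 and 12.00. The share of all probe sets called was 13.6% at 1g, beside 2 of 8 members, and 1.43% on the RPM, beside 1 of 8. Fer2LCH at -0.36 (0.057), Tsf1 at -1.04 (0.098) and -0.92, Mvl at -0.41 and Tsf2 at 0.05 were not called at 1g, nor were Fer1HCH at -0.37, Tsf1 at -1.24 and -1.13, Mvl at -0.56 and Tsf2 at -0.05 on the RPM.

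Both weaker calls lie near the threshold. That of Tsf3 on the RPM was lost without any 1 of its arrays other than array 3 without constraint, at -0.90 to -0.74, and after quantile normalization (-0.80). That of Fer1HCH at 1g was lost without any 1 of its arrays other than array 3 without constraint, at -0.41 to -0.33. Closing the container after the cold step called 0 of 8 members at 1g, where 0.00533% of probe sets were called, and 0 of 8 on the RPM, where 1.49% were, with 0 members at an unadjusted p under 0.05 in both.

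Other iron genes changed in the same RPM comparison at 1g. Of 7 haem synthesis genes 6 rose and none fell (median 0.45, against 0.01 over all probe sets), among them the enzymes Uros1 at 0.85 (adjusted p = 0.00185), Pbgs at 0.74, Urod at 0.69 and Coprox at 0.40. Of 8 iron-sulphur cluster genes 4 rose (median 0.48): Grx5 by 0.88, fh, the fly frataxin, by 0.56, the scaffold IscU by 0.53 and the desulfurase Nfs1 by 0.46. In iron handling mfrn, the mitochondrial iron importer, rose by 0.45, Evi5 was at -0.87 and Mco1 at -0.66, both lower. Stage markers moved beside them: photoreceptor and flight muscle genes averaged 9.978 to 10.88 without constraint and 10.99 to 11.03 after the cold step (6 of 8 higher, median 0.61), and early metamorphosis genes 4.832 to 6.291 against 3.745 to 4.896 (2 of 8 lower, median -0.17). Fat body storage genes averaged 11.79 to 12.11 against 11.37 to 11.63 (3 of 5 lower, median -0.58) and antimicrobial peptides 7.517 to 9.16 against 6.645 to 7.073 (2 of 6 lower, median -1.51). Accessory gland genes had 0 called (median 0.52). The part of stage, fat body and infection markers in the Fer1HCH and Tsf3 values was not tested.

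Whether the effect of the cold step differed between facilities was tested in open 1g controls in 1 fit over all 90 arrays. This comparison was added after the data were examined, and pupae, containers and array scale differ between facilities, so facility and these differences cannot be told apart. The same holds for differences between runs of groups with and without the cold step. Between magnet and RPM all 6 genes differed, 7 of 8 probe sets where 22% of all were called: Fer1HCH by 0.59 (adjusted p = 0.00236), Fer2LCH by 0.49 (0.0218), Tsf1 by 1.84 (0.00358) and 2.24 (0.00967), Tsf2 by 0.59 (0.0302), Tsf3 by 1.38 (0.00109) and Mvl by 1.59 (0.000522). Between magnet and LDC 3 differed where 26% of all were called: Tsf2 by 1.78 (1.54e-10), Tsf3 by 1.06 (0.0118) and Mvl by 1.27 (0.00504, lost without the low open 1g array of the magnet, at 0.71). Between RPM and LDC 2 differed where 15.2% of all were called, Tsf2 by 1.2 (1.6e-05) and Fer1HCH by -0.48 (0.0207). Several of these calls were lost when single arrays were left out. Between magnet and RPM that of Fer2LCH was lost without array 1 or 2 without constraint or cold step array 3 of the RPM facility or array 1 without constraint of the magnet (0.44 to 0.57 over all arrays left out), and that of Tsf2 without array 1 or 3 without constraint or cold step array 1 of the RPM facility or array 2 without constraint or cold step array 3 of the magnet (0.49 to 0.65). The Mvl value was 1.03 to 2.01, the lowest without the low magnet array. Between magnet and LDC that of Tsf3 was lost without cold step array 2 of the magnet or array 1 without constraint or cold step array 3 of the LDC (0.79 to 1.26), and between RPM and LDC that of Fer1HCH without array 1 or 2 without constraint or cold step array 3 of the RPM facility or array 3 without constraint or cold step array 1 of the LDC (-0.57 to -0.30). After quantile normalization Tsf2 between magnet and RPM (0.44) and Tsf3 between magnet and LDC (0.82) were not called. In closed 1g controls Tsf2 was the 1 member of 8 that differed between magnet and LDC, by 0.99 (0.0013), where 7.71% of all were called.

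**Figure D3:**
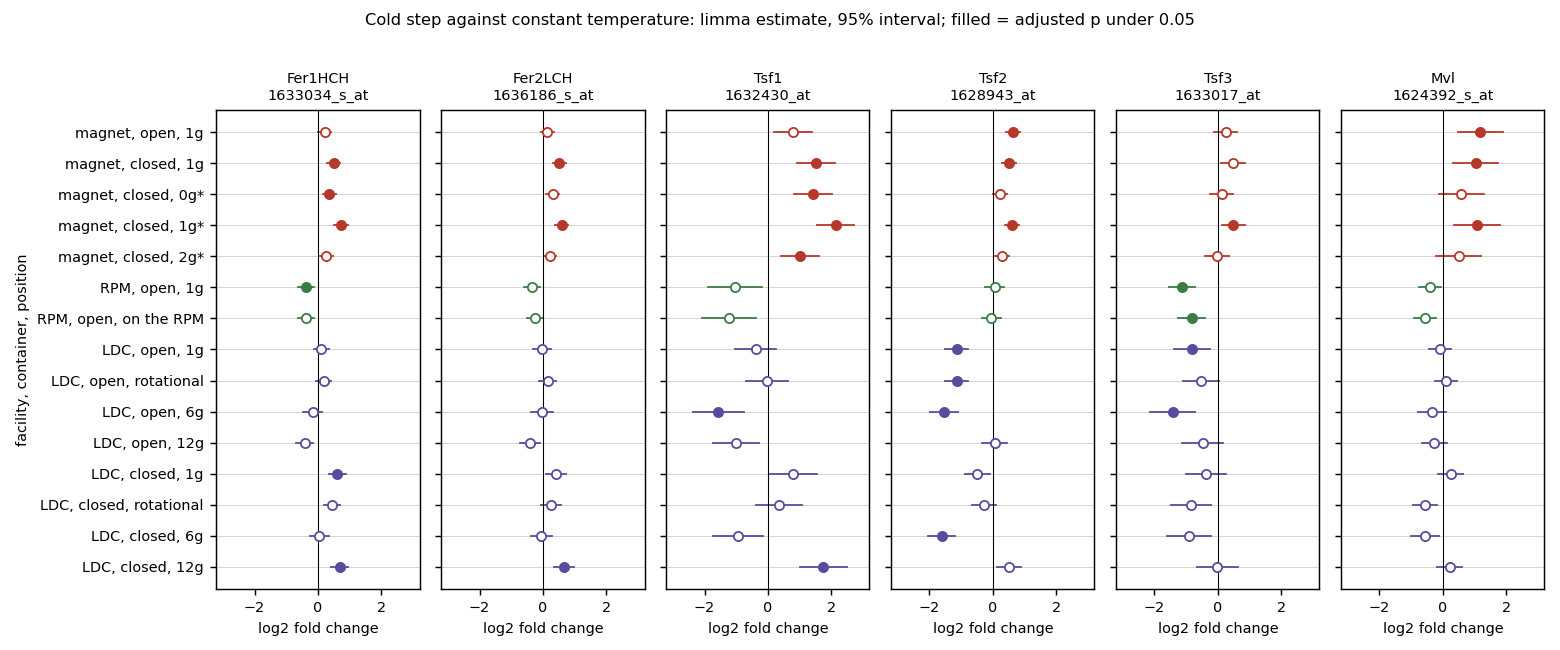
Log2 fold change of the cold step (horizontal axes) with its 95% interval for each member in 15 combinations of facility, container and position (vertical axis), magnet in red, RPM in green and LDC in purple. Filled points have an adjusted p under 0.05; filled points of the magnet lie right of 0 for all 6 genes, and those of Tsf2 in the LDC left of it.

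Tsf2, the septate junction member of the group, had the clearest split. In the LDC facility it read 9.55, 9.62 and 9.64 in open 1g controls without constraint and 8.58, 8.72 and 8.07 after the cold step, a fall by 1.15 (adjusted p = 2.78e-05 in limma). In the rotational control it read 9.13, 9.72 and 9.59 against 8.51, 8.27 and 8.22 (-1.15, 3.22e-05) and at open 6g 9.74 and 9.75 against 8.15 and 8.26 (-1.54, 8.21e-06). The term for the second experiment left these values at -1.15, -1.15 and -1.54.

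At 12g Tsf2 did not follow. In open containers it read 9.26 and 9.28 without constraint and 9.24, 9.27 and 9.46 after the cold step (0.05, not called). In closed containers it fell by 1.62 at 6g, from 9.95 and 9.98 to 8.11 and 8.58 (3.93e-06), and at 12g was 0.51 higher, not called. At closed 1g the difference was -0.49, also not called. The difference of the 12g response between the cold step and no constraint in open containers was 1.2 (adjusted p = 0.0116, over its alternatives 0.00434 to 0.108), with the term also 1.2. It was 1.02 within the arrays of 1 experiment, where each 1g group kept 1 array. Without 12g array 2 of no constraint it was 1.21 and not called.

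A list of 16 septate junction genes, chosen because Tsf2 works in that complex and without Tsf2 in it, had 14 measured members. After the cold step in the magnet 12 of 14 rose at closed 1g (median 0.62), 11 at open 1g (0.70), 12 at 1g* (0.79), 3 at 0g* (0.33) and 4 at 2g* (0.42), and none fell. In the RPM facility 0 rose and 1 fell at 1g (median -0.00) and 0 were called on the RPM (-0.01), where Tsf2 was not called either. In the LDC 12 of 14 fell in open containers at 1g (-1.19), in the rotational control (-0.925) and at 6g (-1.30), and 12 at closed 6g (-1.37). At 12g 0 were called in open (-0.16) and in closed containers (0.22), and 1 fell at closed 1g (-0.34) and in the closed rotational control (-0.44). The medians over all probe sets were between -0.09 and 0.01 in the magnet closed 1g, open 1g and 1g*, RPM 1g and LDC open 1g comparisons.

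Single genes of the list show the size of these shifts. In the magnet closed 1g control vari rose by 0.86 (adjusted p = 2.4e-05), Gli, or Gliotactin, by 1.18 (0.000177), the claudin-like sinu by 0.87 and the immunoglobulin protein Lac by 0.51. In LDC open 1g controls crok was at -1.23 (1.41e-06), sinu at -1.26, pck, also claudin-like, at -1.14 and cold at -1.31, all lower. Accessory gland genes moved beside them in the LDC, from 4.785 to 5.403 without constraint to 8.661 to 9.324 after the cold step at open 1g (9 of 10 higher, median 4.19), the opposite of the magnet. Their mean was 9.765 to 10.03 at open 6g and 5.633 to 6.198 at open 12g after the cold step. Their part in the Tsf2 and septate junction values was not tested.

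**Figure D4:**
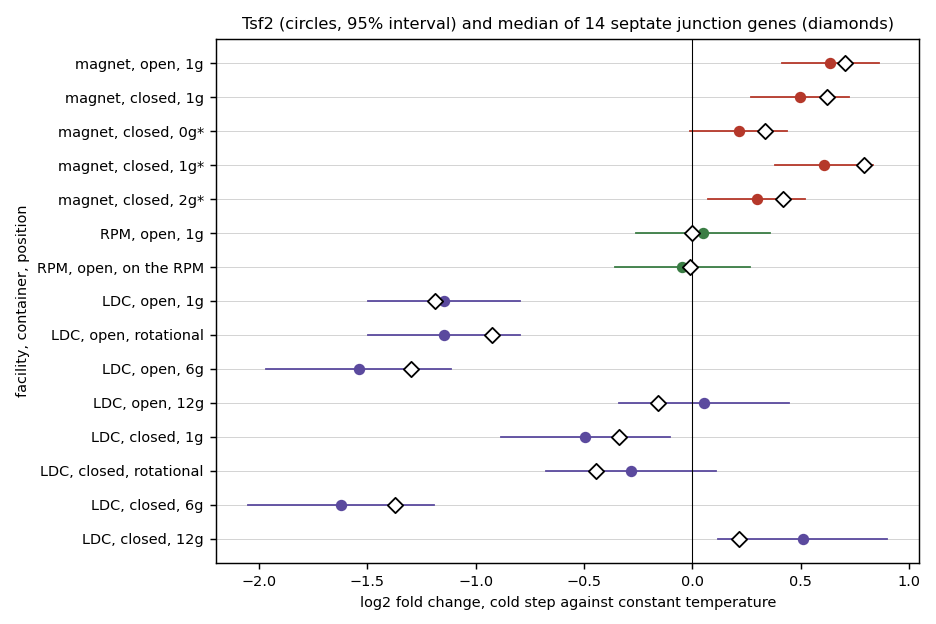
Log2 fold change of the cold step (horizontal axis) for Tsf2 (circles, 95% interval) and the median of 14 septate junction genes (diamonds) in 15 combinations of facility, container and position (vertical axis). Both lie right of 0 in the magnet, near 0 in the RPM facility, and left of 0 in the LDC except at 12g, where Tsf2 was at 0.05 and 0.51 and the list at -0.16 and 0.22.

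Tsf3 and Tsf1 were also called after the cold step in open LDC containers. In open 1g controls 2 of 8 were called among 16% of all probe sets, Tsf2 and Tsf3. Tsf3 read 8.78, 8.09 and 7.84 without constraint and 7.47, 7.72 and 7.08 after the cold step, a fall by 0.81 (adjusted p = 0.0449) that was lost within the arrays of 1 experiment (-0.565), after quantile normalization (-0.79) and without array 1 (-0.54) or 2 (-0.89) of no constraint or array 1 (-0.84) or 3 (-0.64) of the cold step. At open 6g 3 of 8 were called among 22.8%: beside Tsf2, Tsf3 fell by 1.43 (0.00266), from 8.07 and 8.14 to 6.66 and 6.69, and Tsf1 (1632430_at) was at -1.565 (0.00382), lower, from 10.92 and 11.77 to 9.76 and 9.80, a call lost without 6g array 2 of no constraint (-1.14). Tsf1 (1639442_a_at) averaged 9.045 without constraint and 8.57 after the cold step, not called. With the mean over all its probe sets Tsf1 was at -0.63, not called. In the open rotational control 1 of 8 was called among 20.4% and at open 12g 0 of 8 among 0.597%, with 3 at an unadjusted p under 0.05.

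In closed LDC containers Fer1HCH rose after the cold step at 1g and 12g, and Fer2LCH and Tsf1 at 12g. Fer1HCH read 13.00, 12.86 and 12.96 at closed 1g and 13.51 and 13.58 after the cold step, a rise of 0.605 (adjusted p = 0.0133) and the 1 call of 8 beside 1.41% of all probe sets. At closed 12g it read 12.94, 13.03 and 12.82 against 13.64 and 13.59, a rise of 0.685 (0.00842), Fer2LCH read 12.41, 12.46 and 12.46 against 13.10 and 13.10 (0.66, 0.024) and Tsf1 (1632430_at) 10.22, 9.99 and 10.17 against 12.38 and 11.37 (1.75, 0.0131), 3 of 8 beside 1.57%. Tsf1 (1639442_a_at) averaged 7.92 against 9.5 after the cold step, not called. With 2 arrays after the cold step the calls of Fer1HCH were lost without either of them (0.57 and 0.64 at 1g, 0.66 and 0.71 at 12g), that of Tsf1 without array 1 (1.24) and that of Fer2LCH without any 1 of its 5 arrays (0.64 to 0.67). The environment of array 1 of closed 12g after the cold step is given by its characteristics and not by its title. The names of both arrays of this group differ between the labels and the study's sample table. That table lists them under the cold step, but with the letter of its constant-temperature LDC groups. Their assignment is thus less certain in every comparison that uses this group. At closed 6g Tsf2 was the 1 call of 8 beside 16%, where Fer1HCH averaged 12.95 after the cold step against 12.905 (0.04, not called) and Fer2LCH 12.54 against 12.59 (-0.05, not called). In the closed rotational control 0 of 8 were called beside 3.32%, with 3 at an unadjusted p under 0.05, Fer1HCH at 0.44 and Fer2LCH at 0.26. Fat body storage genes averaged 12.67 to 12.99 at closed 12g after the cold step against 11.2 to 12.13 without it (1 of 5 higher, median 1.34), and 11.92 to 11.95 against 11.33 to 11.69 at closed 1g (0 of 5 called). Accessory gland genes averaged 5.327 to 6.213 against 7.31 to 8.942 at closed 12g (5 of 10 lower, median -2.78). The part of either list in the ferritin and Tsf1 values was not tested.

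In LDC open 1g controls the iron handling list had 1 gene higher and 4 lower of 8 (median -0.26, against -0.04 over all probe sets), among them Zip99C, a ZIP-family transporter, at 0.87, mfrn at -0.69, Evi5 at -1.22 and Mco3 at -1.35. Of 7 haem synthesis genes 3 were lower (median 0.18), Alas, the first enzyme of the pathway, at -0.97, FeCH, the last, at -0.85 and Ppox at -0.54. Fat body genes had 1 of 5 lower (median -1.05), midgut genes 3 of 9 higher (0.88) and tanning genes 1 higher and 6 lower of 10 (-0.60).

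The centrifuge asks whether 6g and 12g change expression, and 8 of 96 member values were called against 1g. None was called without constraint, at 12g beside 0.149% of all probe sets or at 6g beside 0%, with 0 members at an unadjusted p under 0.05 in either, and none in the rotational control in the 4 environments, beside 0.016%, 0.0533%, 0% and 0.00533%, with 0, 0, 1 and 1 at an unadjusted p under 0.05. After the cold step in open containers Tsf2 at 12g (9.24, 9.27 and 9.46) lay above all 1g arrays (8.58, 8.72 and 8.07). It was 0.87 higher (SE 0.17, 1.82-fold, adjusted p = 0.00306) and 0.89 higher with the term. Within 1 experiment, where the 1g group kept 1 array, Tsf2 was 0.74 higher. The adjusted p of Tsf2 ran from 0.000355 to 0.0952 over the alternatives. Mvl, at 7.13, 7.37 and 7.65 against 7.94, 7.67 and 8.23, was lower (-0.56, adjusted p = 0.0356), a call lost with the term (-0.37), after quantile normalization (-0.35) and without 12g array 1 (-0.44) or 2 (-0.56) or 1g array 1 (-0.57) or 3 (-0.42). These were 2 of 8 beside 10.8% of all probe sets, and 6g after the cold step called 0 of 8 beside 0.213%, with 2 at an unadjusted p under 0.05. Septate junction genes had 6 of 14 higher at 12g (median 0.48) and accessory gland genes 9 of 10 lower (median -3.36), and the part of the latter was not tested.

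Tsf2 was not called higher at 12g than at 1g in the other environments. In open containers without constraint the difference was -0.33 (-0.31 with the term), not called, and in closed containers after the cold step 0.43 (0.39 with the term), not called either. In closed containers at constant temperature Tsf2 read 8.69, 9.14 and 8.50 at 12g against 9.70, 9.06 and 9.30 at 1g, with 1 array of each group inside the other, and was lower (-0.58, adjusted p = 0.0222). Tsf1 (1639442_a_at) was lower at 7.29, 7.70 and 8.76 against 9.33, 8.85 and 9.59 (-1.34, 0.0418), and Tsf1 (1632430_at) averaged 10.13 against 10.53, not called. Mvl was higher at 12g, at 8.14, 7.96 and 8.21 against 7.72, 7.22 and 7.47 (0.63, 0.0135), and at 6g, at 8.28 and 8.22 (0.78, 0.0186). These were 3 of 8 at 12g beside 17.5% of all probe sets and 1 of 8 at 6g beside 4.42%.

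None of these closed-container calls held with the term for the second experiment, where Tsf2 was at -0.62, Tsf1 at -1.19 and Mvl at 0.34 at 12g and 0.49 at 6g. Leaving out 1 array also ended them: Mvl at 12g without 1g array 2 (0.51) and at 6g without either 6g array (0.75 and 0.81) or 1g array 2 (0.66), Tsf2 without 12g array 1 (-0.53) or 3 (-0.44) or 1g array 1 (-0.40), and Tsf1 without any array but 12g array 3 (-1.54 to -1.03). Median centring ended the Tsf1 call too, at -1.31, as did the mean over all its probe sets, at -0.59. Accessory gland genes had 8 of 10 higher at closed 12g (median 2.26), and septate junction genes 1 higher and 5 lower of 14 (median -0.27).

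After the cold step in closed containers Fer1HCH at 6g (12.83 and 13.07) lay below 1g (13.51 and 13.58) and was lower (-0.595, adjusted p = 0.0119), and Tsf1 (1632430_at) read 9.0 and 10.73 against 11.38 and 11.29 (-1.47, 0.0232). They were 2 of 8 beside 6.4% of all probe sets, and at 12g 0 of 8 were called beside 0.421%, with 1 at an unadjusted p under 0.05. With the term the values were -0.37 and -1.41, neither called. Without the low 6g array 1 they were -0.47 and -0.60, Tsf1 was at -2.34 without 6g array 2, and the calls were also lost without 1g array 1 (-0.63 and -1.43) or 2 (-0.56 and -1.51). Tsf1 (1639442_a_at) averaged 8.56 at 6g and 10.125 at 1g, not called. Accessory gland genes averaged 9.03 to 10.16 at 6g and 5.248 to 5.379 at 1g, and their part was not tested.

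**Figure D5:**
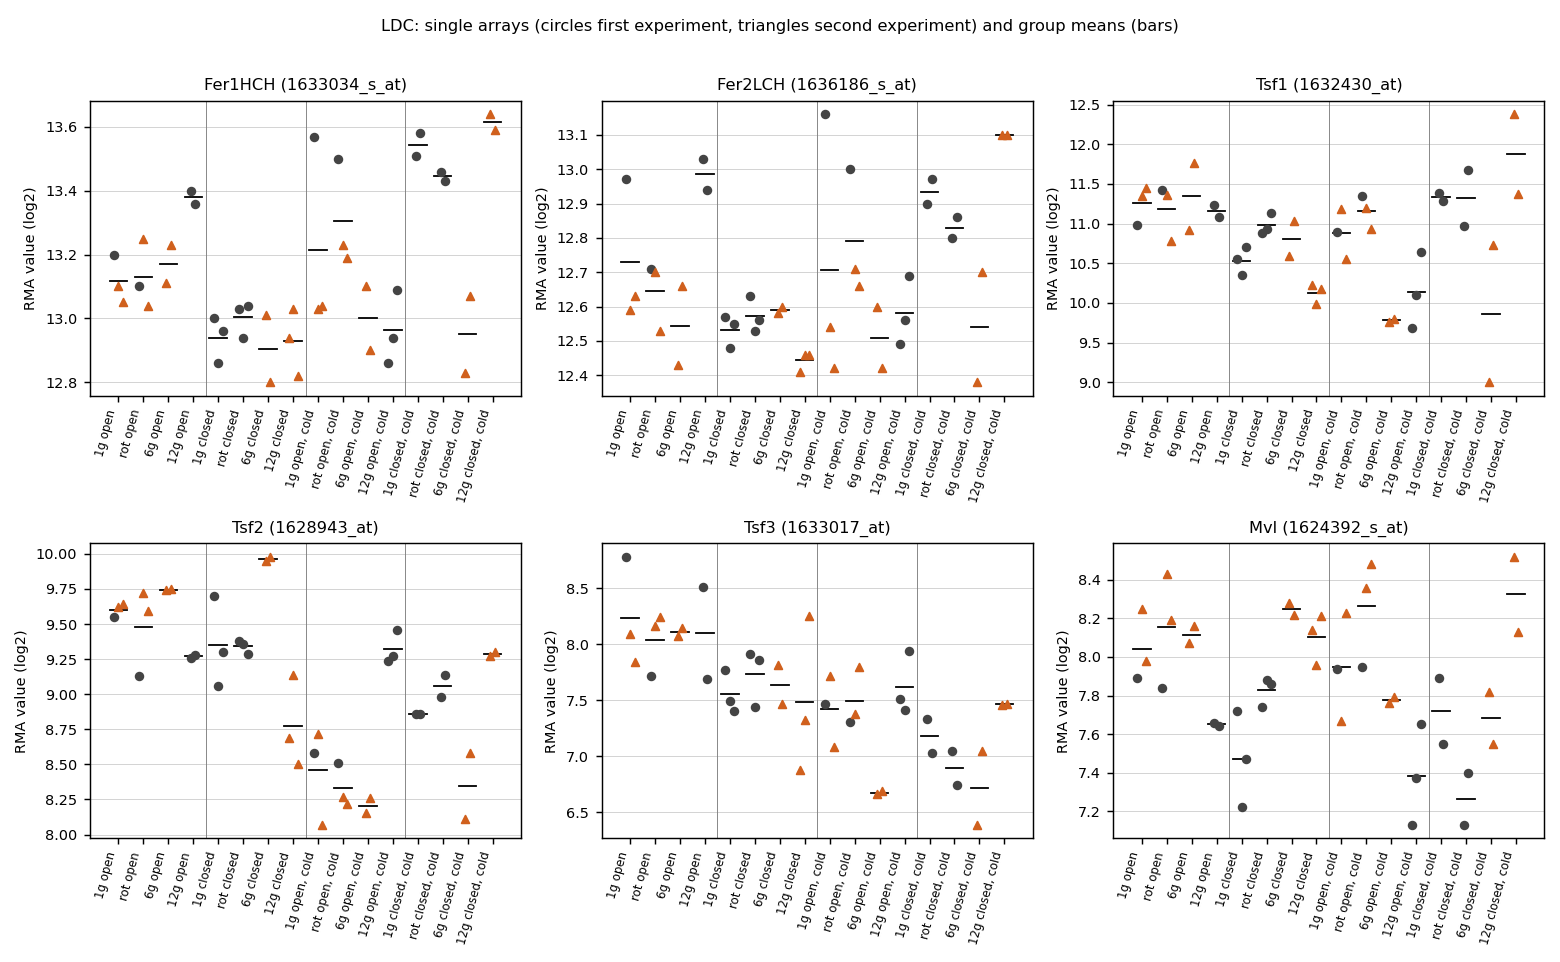
Log2 value (vertical axes) of the members on the LDC arrays by environment and position (horizontal axis), with circles for the first experiment, triangles for the second and bars for means. Tsf2 at 12g is at 9.24 or above after the cold step in open containers while the 6g, rotational control and 1g arrays lie at or below 8.72.

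Comparing 12g with 6g keeps to 1 experiment in closed containers, where both were of the second. In closed containers at constant temperature Tsf2 at 12g (8.69, 9.14 and 8.50) was below 6g (9.95 and 9.98), by a fold change of -1.19 on the log2 scale (adjusted p = 5.78e-05), 1 of 8 beside 12.5% of all probe sets. With the cold step the order was the reverse, and Tsf2 read 9.27 and 9.30 at 12g against 8.11 and 8.58 at 6g (0.94 higher, 0.00618). In open containers after the cold step Tsf2 was 1.12 higher at 12g (0.000237, and 1.16 with the term, also called), at 9.24, 9.27 and 9.46 against 8.15 and 8.26, and Tsf3 0.945 higher (0.0177), at 7.51, 7.41 and 7.94 against 6.66 and 6.69, 2 of 8 beside 43%. The Tsf3 call was lost with the term, where the value was 0.91, and without 12g array 3 (0.79) or either 6g array (0.93 and 0.96). Without constraint 0 of 8 were called beside 13.2%, with 3 at an unadjusted p under 0.05. Septate junction genes had 7 of 14 higher in open containers after the cold step (median 0.48), 9 lower in closed containers at constant temperature (median -0.90) and 5 higher in closed containers after the cold step (median 0.54), the sign that Tsf2 had in each.

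The ferritin chains and Tsf1 joined Tsf2 in closed containers after the cold step, 4 of 8 beside 7.71% of all probe sets. Fer1HCH read 13.64 and 13.59 at 12g against 12.83 and 13.07 at 6g (0.665 higher, adjusted p = 0.00461), Fer2LCH 13.10 and 13.10 against 12.38 and 12.70 (0.56, 0.0346) and Tsf1 (1632430_at) 12.38 and 11.37 against 9.0 and 10.73 (2.01, 4.03-fold, 0.00266). Array 1 of 6g was the lowest for all 4 genes. Without it Fer1HCH was at 0.55, Fer2LCH at 0.40, Tsf1 at 1.15 and Tsf2 at 0.70, none called. The Fer2LCH call was also lost without either 12g array (0.56) and that of Tsf1 without 12g array 1 (1.5). In fits of the compared groups alone all 4 calls were lost. Tsf1 (1639442_a_at) averaged 9.5 at 12g and 8.56 at 6g, not called. Fat body storage genes had 4 of 5 higher at 12g (median 2.80) and accessory gland genes 8 of 10 lower (median -4.54), and their part was not tested.

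At 12g in the LDC members differed between closed and open containers. At constant temperature the ferritin chains and Tsf1 were lower in closed containers: Fer1HCH at 12.94, 13.03 and 12.82 against 13.40 and 13.36 (-0.45, adjusted p = 0.0166), Fer2LCH at 12.41, 12.46 and 12.46 against 13.03 and 12.94 (-0.54, 0.0141) and Tsf1 at -1.03 (0.0379) and -1.56 (0.0294), 4 of 8 beside 23.4% of all probe sets. Open arrays were of the first and closed arrays of the second experiment, and with the term none was called, Fer1HCH at -0.22, Fer2LCH at -0.18 and Tsf1 at -0.97 and -1.42. Following the cold step the direction was the opposite, with Fer1HCH 0.65 higher (0.00326), Fer2LCH 0.52 higher (0.026), Tsf1 (1632430_at) 1.735 higher (0.00402) and Mvl 0.94 higher (0.00379), 4 of 8 beside 12.9%. With the term Fer1HCH and Fer2LCH were both at 0.88, Tsf1 at 1.79 and Mvl at 0.65, all still called. Tsf1 (1639442_a_at) averaged 9.5 in closed and 8.60 in open containers after the cold step, not called. With the mean over all its probe sets Tsf1 was at 0.835, not called. Fat body storage genes averaged 11.2 to 12.13 in closed against 12.39 to 12.49 in open containers at constant temperature (2 of 5 lower, median -1.12) and 12.67 to 12.99 against 11.33 to 11.75 after the cold step (2 of 5 higher, median 0.81). Accessory gland genes averaged 7.31 to 8.942 in closed against 5.158 to 5.615 in open containers at constant temperature (9 of 10 higher, median 2.71), and 0 of 10 were called after the cold step. Their part in these values was not tested.

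In fits of the compared groups alone none of these calls was kept. Leaving out 1 array ended several of them. At constant temperature they were Fer1HCH without either open array (-0.43 and -0.47), Fer2LCH without open array 1 (-0.50) and Tsf1 without either open array or closed array 1 or 2 (-1.1 to -0.95 for 1632430_at, also without closed array 3, and -1.57 to -1.25 for 1639442_a_at). After the cold step they were Tsf1 (1.23) and Mvl (0.75) without closed array 1, and Fer2LCH without open array 1 or 2 or either closed array (0.47 to 0.52). In the rotational control after the cold step Tsf2 was 0.73 higher in closed containers (0.0076, and 0.75 with the term) and Mvl lower (-0.998, 0.00103, and -0.80 with the term), 2 of 8 beside 28.7%. Within 1 experiment, with 2 closed arrays against 1 open array, the values were 0.55 for Tsf2 and -0.685 for Mvl. The Tsf2 call was lost without closed array 2 (0.65). At 1g closed and open containers differed for 0 of 8 members at constant temperature (3.86% of all) and 0 of 8 after the cold step (3.63%), with 3 and 2 at an unadjusted p under 0.05 in limma. At open against closed 6g 0 of 8 were called at constant temperature and after the cold step, beside 0% of all probe sets in both and with 0 members at an unadjusted p under 0.05, and in the rotational control at constant temperature 0 of 8 beside 0.229%, with 0 at an unadjusted p under 0.05.

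Mvl gave the other changes of the 12g response between environments. Its response in closed containers exceeded that without constraint by 1.02 at constant temperature (adjusted p = 0.0155) and by 0.995 after the cold step (0.0461), 1 of 8 in each beside 14.5% and 3.78% of all probe sets, as Tsf2 was 1 of 8 beside 3.35% in open containers. With the term for the second experiment the Mvl values were 0.53 and 0.51, not called. The first was lost without 1g array 2 of no constraint (0.92), and the second without any 1 of 8 of its arrays (0.80 to 1.19) and with trend and robust settings (0.995).

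The genes most like each member were ranked over the 30 magnet arrays, where all points share the cold step contrast. Fer1HCH was most like Fer2LCH, hll (r = 0.953, and 0.944 over 20 RPM and 0.407 over 40 LDC arrays) and CG31955 (0.94, 0.891 and 0.872). Beside Fer1HCH, Fer2LCH was most like Lk6 (0.925, 0.846 and 0.549) and hll (0.924). Tsf1 was most like hll (0.934, 0.90 and 0.677), scf (0.926) and Sgsh (0.925), and its own r with Fer1HCH was 0.921, 0.902 and 0.664. Tsf2 was nearest Skel (0.954, 0.787 and 0.682) and exp (0.954, 0.748 and 0.669), and its r with Fer1HCH was 0.677 in the magnet, 0.329 in the RPM and -0.043 in the LDC facility. The Mvl neighbours ari-1 (0.949), bsk (0.935) and Hr39 (0.929) had r of 0.142, 0.088 and 0.399 over the RPM arrays. Tsf3 had the loosest neighbours, CG12991 at 0.826, bwa at 0.813 and bon at 0.782.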

How the data were processed

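The values were log2 expression values per probe set, made by the authors with RMA and deposited with 2 decimals in 1 table for all 90 arrays; RMA and limma are named in the submitters' processing notes without versions. RMA summarises the probes of a set over arrays, and the LDC arrays carry another scale than the rest. Of 18952 probe sets 183 control sets were left out. The annotation gave 13647 of the others 1 gene symbol, 402 several and 4720 none. No depth exists for arrays, so the number of arrays limits precision, and 0 columns were unused.

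For each facility a linear model over all its groups was fitted in limma (version 3.58.1, R version 4.3.3) with moderated two-sided tests, in 73 comparisons and interactions of which 23 were against 1g. Every adjusted p is from limma with Benjamini-Hochberg over 18769 probe sets, and a value was called under 0.05. Comparisons with one control group share its arrays. Scripts were tested on simulated data. The members, gene lists and comparisons were chosen with earlier results of these data known. Genes named beside the members were up to 4 per list with the smallest p, and the 3 most correlated with each member over the magnet arrays. A list stands by the brightest probe set of each gene.

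Alternatives were median centring, quantile normalization, a filter on dim probe sets, the mean over probe sets of a gene, trend and robust settings, an unadjusted p under 0.001, a replicate block, fits of the compared groups alone, a term for the second LDC experiment or 1 experiment alone, and leaving out each array. The comparison between facilities was chosen after the data were examined.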

Additional observations from a re-analysis of the deposited data

Results flagged for a closer look

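In these results an effect differed between conditions or facilities in a test of the difference itself. Groups of 4 arrays were also searched for a single array far from the rest, and in 16 such groups of member values none was found.

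The 12g response of Tsf2 in the LDC, 12g against 1g, was higher by 1.2 after the cold step than without constraint. That of Mvl was higher by 1.02 under hypoxia and by 0.995 after the cold step with hypoxia than without constraint, and both Mvl differences lost their call with a term for the second experiment.

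The effect of the cold step in open 1g controls differed between magnet and RPM by 0.59 for Fer1HCH, 0.49 for Fer2LCH, 1.84 and 2.24 for the Tsf1 probe sets 1632430_at and 1639442_a_at, 0.59 for Tsf2, 1.38 for Tsf3 and 1.59 for Mvl, higher in the magnet. Between magnet and LDC it differed by 1.78 for Tsf2, 1.06 for Tsf3 and 1.27 for Mvl, higher in the magnet. Between RPM and LDC it differed by -0.48 for Fer1HCH, lower in the RPM facility, and by 1.2 for Tsf2, higher there. In closed 1g controls it differed between magnet and LDC by 0.99 for Tsf2. Of these 13 differences 11 were still called after quantile normalization, 13 with a term for the second LDC experiment, and 8 without each array in turn. Facility, run, container material and array scale cannot be told apart here.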

How the results depend on the processing

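Values with an unadjusted p under 0.05 were recomputed 1211 times under processing alternatives. Of these 1078 kept their direction and side of the threshold, 81 lost and 51 gained the call, and 1 changed sign. That was Fer1HCH between closed and open LDC containers at 1g after the cold step, at 0.33 and -0.025 within 1 experiment. There the open side kept 1 array. For all values with an unadjusted p under 0.05 leaving out 1 array kept 741 of 888, with 127 lost, 20 gained and 0 turned. Of the other values 174 of 3364 changed sign under processing alternatives and 349 of 3032 with an array left out. Member calls were 1 for magnet positions against closed 1g, with 0 under the replicate block, quantile normalization or a fit of the compared groups alone, 2 with trend and robust settings and 0 to 1 with an array left out. Between magnet positions the 2 calls became 0 after quantile normalization or with the compared groups alone, and 0 to 4 with an array left out. The 3 calls of the RPM environment became 5 with the compared groups alone and 2 to 5 with an array left out. Against 1g in the LDC the 8 calls became 5 at an unadjusted p under 0.001, 2 with the compared groups alone, 3 with the term for the second experiment and 5 to 9 with an array left out. In the LDC environment 28 became 14 with the compared groups alone, and 20 to 32 with an array left out. The 3 interactions became 1 and 1 to 4. The 20 magnet environment calls became 15 after quantile normalization and 18 to 22 with an array left out. The cause of these changes was not tested, also where the compared groups alone left fewer arrays for the spread.

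Whether replicate numbers pair samples was not settled. The deviations of same-numbered arrays correlated at a median of -0.029 in the magnet, -0.002 in the RPM and 0.049 in the LDC facility. Single pairs ran from -0.589 to 0.606, from -0.459 to 0.37 and from -0.529 to 0.577. In the LDC same-numbered arrays can be of different experiments, so pairing could not show there. With the replicate block 146 of 153 values kept their side, 6 lost and 1 gained the call, and the calls were 17 in the magnet environment and 29 in the LDC environment.

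Groups of 2 to 4 arrays set the main limit, and most calls near the threshold were lost when 1 array was left out. RMA removes differences in overall signal, so changes are relative within a facility.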
